A study of Mus musculus with 6 samples.

Results

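The genes described here are Bdnf, Ntf5, Ntrk2, Ntrk3, Ngfr, Sort1 and Vgf: a pair of neurotrophins, 4 of their receptors and a secreted protein whose gene neurotrophins induce. They were chosen by symbol, and all 7 were found among the 19938 genes of the array. Each was read by 1 probe set, a group of array probes summarised into 1 value, so no member had a second probe set to compare. RNA was extracted from frontal cortex, dissected from both hemispheres. The mice were wild type, of the strain 129S6/SvEv, and 8 to 12 weeks old. One group of 3 libraries came from mice injected intraperitoneally for 21 days with 20 mg per kg SAHA, and the other group of 3 from mice injected with vehicle for as long, which the titles call saline. SAHA, also named suberoylanilide hydroxamic acid or vorinostat, blocks histone deacetylases that use zinc, enzymes that take acetyl groups off histones. The mice were killed 1 day after their final dose, so the values describe that time and no earlier one. The labels do not say that each library is a separate mouse, and p-values then measure the scatter of these samples alone, part of which may be technical.

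Neurotrophins are growth factors that neurons make as larger precursors and release from dense core vesicles. Mature BDNF and neurotrophin-4, the product of Ntf5, bind the receptor tyrosine kinase TrkB, the product of Ntrk2. TrkC, the product of Ntrk3, binds neurotrophin-3. The p75 receptor, the product of Ngfr, binds all neurotrophins, and together with sortilin, the product of Sort1, it binds the uncleaved precursors. In the cortex, Bdnf and Vgf are expressed in neurons and respond to neuronal activity, while a truncated form of TrkB that lacks the kinase is abundant in astrocytes.

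Bdnf has several alternative first exons, each with its own promoter, spliced to 1 shared coding exon. The RefSeq promoter table of GRCm38.p6 lists 7 starts for Bdnf, and the 1 probe set of Bdnf carries accessions of several transcripts, so its value cannot assign a change to a start. Shown here are the 120 bases before the first listed start, before the start that matched a searched motif and before the last one, all on the plus strand and written 5′ to 3′. Capitals mark TCACGTCA, the calcium response element through which CREB-type factors act in this promoter.

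Bdnf, first listed start, chr2:109674580-109674699: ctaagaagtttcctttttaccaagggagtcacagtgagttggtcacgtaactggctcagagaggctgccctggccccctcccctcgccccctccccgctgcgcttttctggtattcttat
Bdnf, start with the element, chr2:109692316-109692435: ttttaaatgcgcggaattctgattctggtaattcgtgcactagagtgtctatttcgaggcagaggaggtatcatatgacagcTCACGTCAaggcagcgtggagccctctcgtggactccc
Bdnf, last listed start, chr2:109722801-109722920: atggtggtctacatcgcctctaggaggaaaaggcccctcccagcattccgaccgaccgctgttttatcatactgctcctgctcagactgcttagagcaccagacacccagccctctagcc

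The 250 bases before each start were searched on both strands. TCACGTCA was found in 1 of the 9 windows of Bdnf, Ntrk2 and Ngfr, the members the table holds, and in 0.350% of 32851 windows of all genes. It is an element already known from this Bdnf promoter, and 7 of the 9 windows belong to Bdnf. The match was therefore fixed in advance and shows no enrichment. The full cyclic AMP response element TGACGTCA was in 0 of the 9 windows and 1.55% of all, and the E-box CACGTG in 0 of the 9 and 6.02% of all. TCACGTCA and TGACGTCA differ in their second base and cannot match at the same place. A match is a match of letters and was not tested as a binding site.

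Gene medians of the log2 signals were 6.92 to 6.93 in saline and 6.94 to 6.98 in SAHA. The median of every SAHA array thus lay above that of every saline array. Median centring moved the median difference of all genes from 0.011 to -0.028. Among the 9969 genes at or above the median signal, the median difference on the deposited values was -0.039. The offset between the groups thus varied with signal. Precision is limited by the count of arrays. A pair of libraries stood apart in sex-linked transcripts: saline replicate 1 had Xist at 10.9, against 4.63 to 4.88 in the others, and SAHA replicate 3 had the Y-linked Eif2s3y at 7.80, against 9.18 to 9.25. Saline replicate 1 also had Eif2s3y at 9.20 and the Y-linked Uty at 8.19. SAHA replicate 3 had Xist at 4.76 and Uty at 6.74. Neither library thus had high Xist together with low Y-linked transcripts, and the cause was not tested. Member values are given below with and without both libraries. Of 10 listed genes of cortical excitatory neurons, 8 had a probe set of 1 symbol, and 0 of the 8 lay below the median signal. Camk2a, the brightest, lay between 12.3 and 12.4 on every array. Whether the tissue matched its label was not tested.

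The comparison asks whether repeated deacetylase inhibition left a difference in neurotrophin signalling genes. None of the 7 genes passed: limma with Benjamini-Hochberg adjustment called 0 of 7 members, at adjusted p between 0.292 and 0.979, and 0 of 19938 genes (0%), at a lowest adjusted p of 0.116. At an unadjusted p under 0.05 there were 0 of 7 members against 17.4% of all genes. The SAHA and saline values overlapped for all 7 members, while they did not overlap for 23.9% of all genes. The differences, SAHA minus saline on the log2 scale, had a median of -0.0036 over the members and 0.011 over all genes, and 6 of the 7 lay within 0.1 of 0. SAHA had the higher mean in 3 members and in 52.9% of all genes, and the lower mean in 4 members and in 47.1% of all genes. As folds of SAHA over saline, the 95% intervals of the 7 genes reached from 0.773 at the lowest to 1.26 at the highest, so they bound the differences at these values and do not show that the levels are alike.

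**Figure D1:**
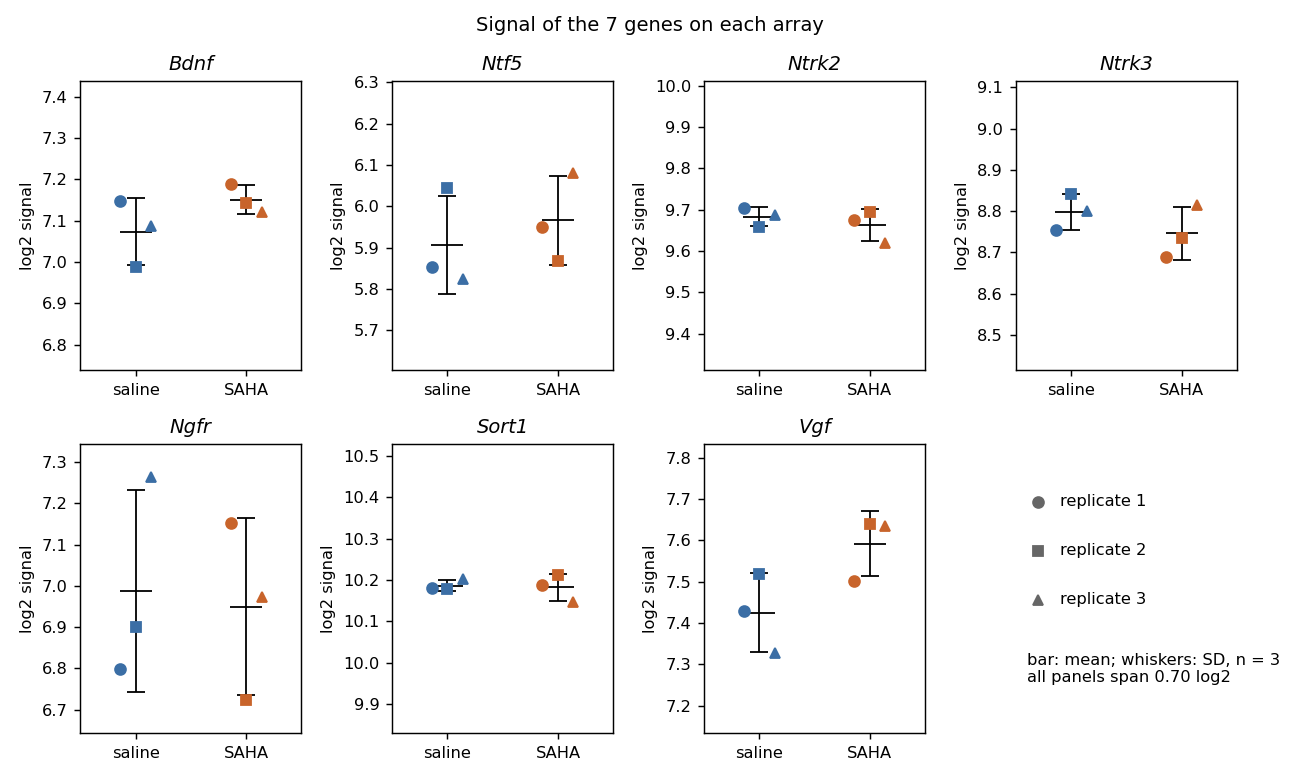
Log2 signal (vertical axes, each spanning 0.70 log2) of each of the 7 genes in the 3 saline and 3 SAHA libraries; points are arrays, horizontal bars means and whiskers SD (n = 3). The groups overlap in every panel, Ngfr has the widest spread, and in Vgf 2 of the 3 SAHA arrays lie above every saline array.

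Among the ligands, Bdnf, the main neurotrophin of the cortex, had log2 signals of 7.15, 6.99 and 7.09 in saline replicates 1 to 3 and 7.19, 7.14 and 7.12 in the SAHA replicates. The 3 SAHA values lay close together in the upper part of the saline range, with 1 of them above it. The means were 7.07 ± 0.081 and 7.15 ± 0.035 (SD, n = 3), a difference of 0.077 (SE 0.064) with a 95% interval from -0.072 to 0.23 and an adjusted p of 0.553 in limma. That is 1.05-fold, with an interval from 0.951 to 1.17. The difference was 0.033 without saline replicate 2, the lowest array. Leaving out saline replicate 1 and SAHA replicate 3 gave 0.13, and limma then gave an adjusted p of 0.626.

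Ntf5, which encodes neurotrophin-4, was the 1 gene of the 7 that did not reach the median signal of all genes. Its log2 signals were 5.85, 6.04 and 5.82 in saline and 5.95, 5.87 and 6.08 in SAHA. The groups interleaved, with saline replicate 2 above 2 of the SAHA arrays. The difference was 0.059 (SE 0.085), at an adjusted p of 0.738 in limma, and it turned to -0.040 after quantile normalization, to -0.042 after cyclic loess and to -0.025 without saline replicate 1 and SAHA replicate 3. In bulk tissue, fewer cells of a type and less RNA per cell cannot be told apart, which holds for every member.

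Of the receptors, Ntrk2 had log2 signals of 9.70, 9.66 and 9.69 in saline and 9.68, 9.69 and 9.62 in SAHA. All 6 arrays lay within a 1.06-fold range, with SAHA replicate 3 lowest. The difference was -0.020 (SE 0.056), an interval from 0.901-fold to 1.08-fold, at an adjusted p of 0.871 in limma. With the sign turned, quantile normalization gave 0.040 and cyclic loess 0.038, and leaving out saline replicate 1 and SAHA replicate 3 gave 0.012. The probe set does not separate full-length from truncated TrkB, so a shift between those forms was not measured. Markers of astrocytes, the cells rich in the truncated form, had 0 of 10 genes at an unadjusted p under 0.05, where 17.4% of all genes were. Their median difference was 0.0083, with a mean signal of 9.09 to 9.15 in saline and 9.07 to 9.15 in SAHA.

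Ntrk3 had log2 signals of 8.75, 8.84 and 8.80 in saline and 8.69, 8.74 and 8.81 in SAHA. SAHA replicates 1 and 2 lay below every saline array, and SAHA replicate 3 lay inside the saline range. The means were 8.80 ± 0.044 and 8.75 ± 0.064 (SD, n = 3), and the difference of -0.053 (SE 0.062) had an adjusted p of 0.676 in limma. After quantile normalization it was 0.0070 and after cyclic loess 0.0049, both with the sign turned. Leaving out saline replicate 1 and SAHA replicate 3 gave -0.11, and limma then gave an adjusted p of 0.668.

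Sort1, the sorting receptor that binds neurotrophin precursors, gave the steadiest values of the members, at 10.18, 10.18 and 10.20 in saline and 10.19, 10.21 and 10.15 in SAHA. All 6 arrays lay within a 1.05-fold range. Its residual SD, the spread of arrays about their group means, was smaller than that of all but 1.76% of genes. The difference was -0.0036 (SE 0.055), with an interval from 0.913-fold to 1.09-fold and an adjusted p of 0.979 in limma. It turned to 0.052 under quantile normalization, 0.053 under cyclic loess and 0.010 when saline replicate 1 and SAHA replicate 3 were left out.

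Ngfr, the p75 receptor, spread most. Its log2 signals were 6.80, 6.90 and 7.26 in saline and 7.15, 6.72 and 6.97 in SAHA, a 1.45-fold range over the 6 arrays. Saline replicate 3 was the highest array and SAHA replicate 2 the lowest, and each group covered most of the range of the other. The residual SD was larger than that of 95.4% of genes, and the difference was -0.039 (SE 0.14), at an adjusted p of 0.908 in limma and with an interval from 0.773-fold to 1.23-fold. Single libraries set its sign: it was 0.099 without saline replicate 3, 0.074 without SAHA replicate 2 and -0.14 without SAHA replicate 1. It was -0.14 as well without saline replicate 1 and SAHA replicate 3 together.

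In the forebrain, p75 is strongest in cholinergic neurons of the basal forebrain and is also made by cells of vessels and meninges, so markers of these were read beside it. Of the cholinergic markers, 4 of 7 were at an unadjusted p under 0.05 (3 higher and 1 lower), with a mean signal of 6.04 to 6.08 in saline and 6.13 to 6.17 in SAHA. Of these 7 genes, 6 lay below the median signal. Zic1, the brightest, reached it and was the 1 lower gene, at -0.25 (SE 0.061) and an adjusted p of 0.145 in limma. The median difference of the 7 was 0.090. It turned to -0.011 under quantile normalization and -0.015 under cyclic loess, with 1 higher and 1 lower at such a p in both. Of the meningeal fibroblast markers, 5 of 8 were at an unadjusted p under 0.05 (4 higher and 1 lower), with a mean signal of 7.02 to 7.09 in saline and 7.04 to 7.13 in SAHA. When saline replicate 1 and SAHA replicate 3 were left out, 0 of these were higher and 1 lower at such a p, and the median difference went from 0.097 to 0.058. Of the pericyte and smooth muscle markers, 1 of 8 was at an unadjusted p under 0.05, with a mean signal of 7.47 to 7.56 in saline and 7.54 to 7.58 in SAHA. Over all genes, 17.4% were at such a p, 11.9% higher and 5.56% lower. The part of these cells in the spread of Ngfr was not tested.

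**Figure D2:**
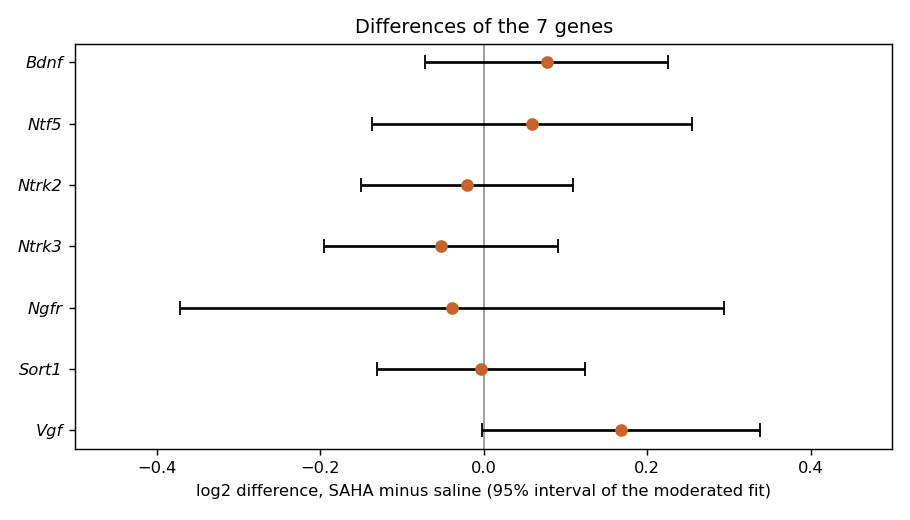
Log2 difference, SAHA minus saline (horizontal axis), of each of the 7 genes; points are differences of means over 3 arrays a group, and lines are 95% intervals of the limma fit. Every interval includes 0, with the lower end of Vgf at -0.0026.

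Vgf, a granin-like protein cut into secreted peptides, had the greatest difference of the 7 in size. Its log2 signals were 7.43, 7.52 and 7.33 in saline and 7.50, 7.64 and 7.63 in SAHA. SAHA replicates 2 and 3 lay above every saline array, while SAHA replicate 1 lay below saline replicate 2. The means were 7.42 ± 0.095 and 7.59 ± 0.079 (SD, n = 3), a difference of 0.17 (SE 0.074) with an interval from -0.0026 to 0.34, or 1.12-fold with an interval from 0.998 to 1.26. limma gave an unadjusted p of 0.0528 and an adjusted p of 0.292, and 18.1% of all genes had a smaller p. Median centring gave 0.13, quantile normalization 0.18 and cyclic loess 0.17. Leaving out saline replicate 1 and SAHA replicate 3 gave 0.15, and limma then gave an adjusted p of 0.658.

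Beside Vgf and Bdnf, 4 of 8 markers of cortical excitatory neurons had all SAHA arrays above all saline arrays and 1 had all below, where 13.6% and 10.4% of all genes did. Their median relative to the saline mean was -0.0044, 0.0088 and -0.0020 in the saline libraries and 0.054, 0.066 and 0.078 in the SAHA libraries. Their mean signal was 9.48 to 9.50 in saline and 9.52 to 9.55 in SAHA. At an unadjusted p under 0.05 in limma, 1 of the 8 was higher and 1 lower, where 11.9% and 5.56% of all genes were. All 8 reached the median signal, and a fit of the 9969 genes that did had 587 higher and 1316 lower at such a p. Without saline replicate 1 and SAHA replicate 3, 0 of the 8 were higher and 0 lower at such a p. Quantile normalization and cyclic loess each gave 3 higher and 0 lower. The part of these markers in the values of Vgf and Bdnf was not tested.

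**Figure D3:**
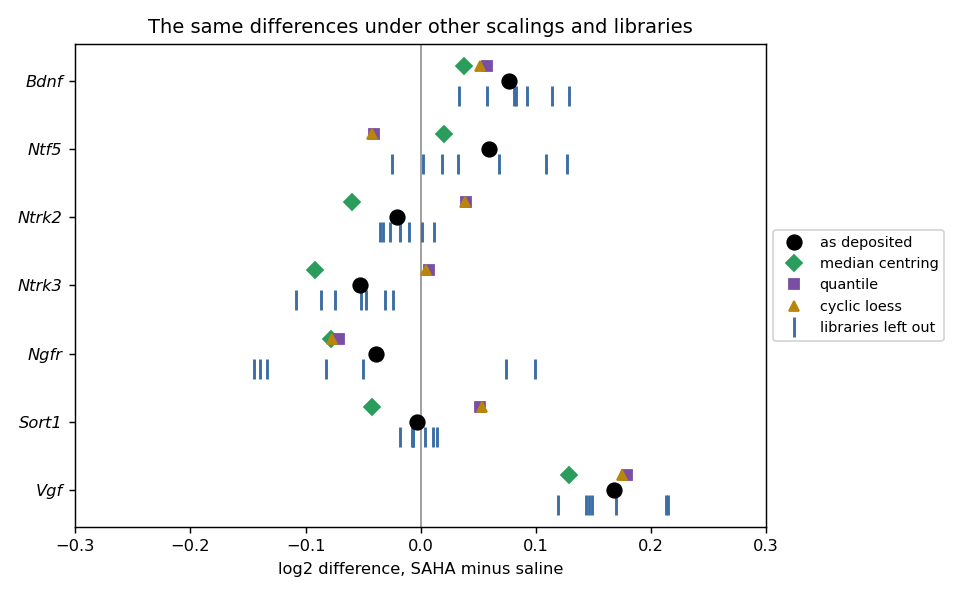
Log2 difference, SAHA minus saline (horizontal axis), of the 7 genes on the deposited values, after 3 other scalings, and with libraries left out; each symbol is 1 fit. All values of Bdnf and Vgf lie above 0, between 0.033 and 0.21 over both genes, while the other five genes have values on both sides of 0.

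The arrays hold other genes of the same pathway. Of the 5 other neurotrophin receptors and relatives measured, 0 were called or at an unadjusted p under 0.05, where 17.4% of all genes were at that p. They are the sortilin relatives Sorcs1, Sorcs2, Sorcs3 and Sorl1, and Nradd, a relative of p75. Their differences ran from -0.078 for Sorcs3 to 0.095 for Sorcs2, and limma gave these adjusted p of 0.626 and 0.479.

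Genes that sort and cleave neurotrophin precursors had 0 of 13 called and 2 of 13 (15.4%) at an unadjusted p under 0.05, where 17.4% of all genes were. Both had higher values in SAHA, where 11.9% of all genes were higher at that p. The median difference of the list was -0.040. Mmp9, a matrix metalloproteinase that can cleave proBDNF, was at 5.51, 5.21 and 5.61 in saline and 5.87, 5.91 and 5.86 in SAHA. The groups did not overlap, and the difference was 0.44 (SE 0.10), at an adjusted p of 0.129 in limma. Groups did not overlap for 5 of the 13 (38.5%), where 23.9% of all genes had such groups. Plg, the precursor of the protease plasmin, differed by 0.32 (SE 0.088), with an adjusted p of 0.159 in limma. Pcsk6, a proprotein convertase, differed by 0.20 (SE 0.088), with an adjusted p of 0.299 in limma. Of the 13, 4 had a higher mean in SAHA and 9 a lower one. Mmp9, Plg and Pcsk6 all lay below the median signal, and under quantile normalization they differed by 0.34, 0.22 and 0.15. Mmp9 is also a gene of neutrophils. Of the blood cell markers, 3 of 6 were higher at an unadjusted p under 0.05, where 11.9% of all genes were. Of the 6, 3 had all SAHA arrays above all saline arrays, where 13.6% of all genes did. The mean signal of the 6 was 5.51 to 5.59 in saline and 5.70 to 5.77 in SAHA, and 5 lay below the median signal. The median difference of this list was 0.13, and became 0.066 under quantile normalization and 0.068 under cyclic loess, with 2 higher at such a p in both. The part of blood cells in Mmp9 was not tested.

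Components of Trk signalling had 0 of 45 called and 3 of 45 (6.67%) at an unadjusted p under 0.05, all with lower values in SAHA, where 5.56% of all genes were lower at that p. Their median difference was -0.030, which became -0.00052 with quantile normalization and, with the sign turned, 0.0015 with cyclic loess, and 0 of the 3 stayed under that p in either scaling. Median centring gave -0.069, with 5 lower at that p. Of the 45, 3 lay below the median signal. A fit of the 9969 genes that reached it had 1316 lower at that p. Rps6ka3, a kinase downstream of ERK, was at 9.56, 9.41 and 9.47 in saline and 9.24, 9.38 and 9.25 in SAHA, a difference of -0.19 (SE 0.069). Akt1, a survival kinase, differed by -0.17 (SE 0.061) and Nras, a small GTPase, by -0.13 (SE 0.058). The arrays of the groups did not overlap for these 3 genes, whose adjusted p in limma lay between 0.229 and 0.284. The 3 were chosen by smallest p. Groups did not overlap for 12 of the 45 (26.7%), where 23.9% of all genes had such groups. Partners of p75 had 0 of 22 called and 3 of 22 (13.6%) at an unadjusted p under 0.05, where 17.4% of all genes were. Their median of -0.0086 turned to 0.016 after quantile normalization and 0.019 after cyclic loess, and became -0.048 with median centring. Aph1a, a subunit of the gamma-secretase that cuts p75, differed by 0.22 (SE 0.075), Psen2, a presenilin of that enzyme, by 0.22 (SE 0.091), and Bex1, a p75 adaptor, by -0.18 (SE 0.073).

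Vgf belongs with the cargo of dense core vesicles. The granins and neuropeptides listed with it had 0 of 25 called and 1 of 25 (4%) at an unadjusted p under 0.05, where 17.4% of all genes were. Of these, 20 had a lower mean in SAHA, where 47.1% of all genes did, and their median was -0.048. Of the 25, 2 lay below the median signal of all genes, and the 9969 genes that reached it had a median of -0.039. Under quantile normalization and under cyclic loess 15 had a lower mean, with medians of -0.0093 and -0.015. Their differences ran from -0.43 to 0.099, and the 0.17 of Vgf lay above that range. Tac1, the precursor of substance P, was at 8.07, 7.78 and 8.23 in saline and 7.42, 7.55 and 7.81 in SAHA, with overlapping groups and a difference of -0.43 (SE 0.13), at an adjusted p of 0.188 in limma. Tac1 is also a striatal marker and is itself among the 6 measured genes of the striatal list. The mean signal of that list, Tac1 included, ranged from 7.67 to 8.11 in saline and from 7.61 to 7.98 in SAHA. The part of striatal cells in Tac1 was not tested. Nucb2, the nesfatin precursor, differed by -0.20 (SE 0.089) and Resp18, an endocrine secretory protein, by -0.20 (SE 0.091).

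Regulators of Bdnf transcription had 0 of 26 called and 3 of 26 (11.5%) at an unadjusted p under 0.05, where 17.4% of all genes were. All 3 had lower values in SAHA, where 5.56% of all genes were lower at that p. Of the 26, 3 lay below the median signal. A fit of the 9969 genes that reached it had 1316 lower at that p. The median of the list was -0.038, which turned to 0.014 after quantile normalization and 0.012 after cyclic loess, and became -0.077 with median centring. Npas4, which binds Bdnf promoters after activity, was at 7.54, 7.66 and 7.66 in saline and 7.15, 7.06 and 6.92 in SAHA, with no overlap. It differed by -0.58 (SE 0.077), at an adjusted p of 0.116 in limma, while Bdnf on the same arrays differed by 0.077. Rest, a repressor of neuronal genes, differed by -0.19 (SE 0.068) and Sin3a, a scaffold of deacetylase complexes, by -0.18 (SE 0.064). Neither had overlapping groups. Groups did not overlap for 5 of the 26 (19.2%), where 23.9% of all genes had such groups.

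Bdnf and Vgf are themselves induced by activity, so a list of 24 measured activity-regulated genes was set beside them. Of these, 0 were called and 9 (37.5%) were at an unadjusted p under 0.05, where 17.4% of all genes were. In SAHA, 8 of the 9 had lower values, among them Npas4, which is also counted with the regulators above. Of the 24, 2 lay below the median signal. A fit of the 9969 genes that reached it had 1903 at that p, 1316 of them lower. The median of the list was -0.18, where all genes had 0.011, and either quantile normalization or cyclic loess gave -0.13. Without saline replicate 1 and SAHA replicate 3, 7 genes were at such a p, all 7 with lower values, and the median was -0.15. Egr2, a transcription factor, was at 8.98, 9.11 and 9.27 in saline and 8.57, 8.87 and 8.55 in SAHA. Fos was at 7.11, 7.14 and 7.17 in saline and 6.80, 6.97 and 6.88 in SAHA, with no overlap for either gene. Groups did not overlap for 9 of the 24 (37.5%), where 23.9% of all genes had such groups. SAHA lay below in 7 of the 9 and above in 2, where 10.4% and 13.6% of all genes did so. Bdnf at 0.077 and Vgf at 0.17 thus lay above the median of the list, within its range of -0.59 to 0.17. The difference between them and the list was not tested.

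**Figure D4:**
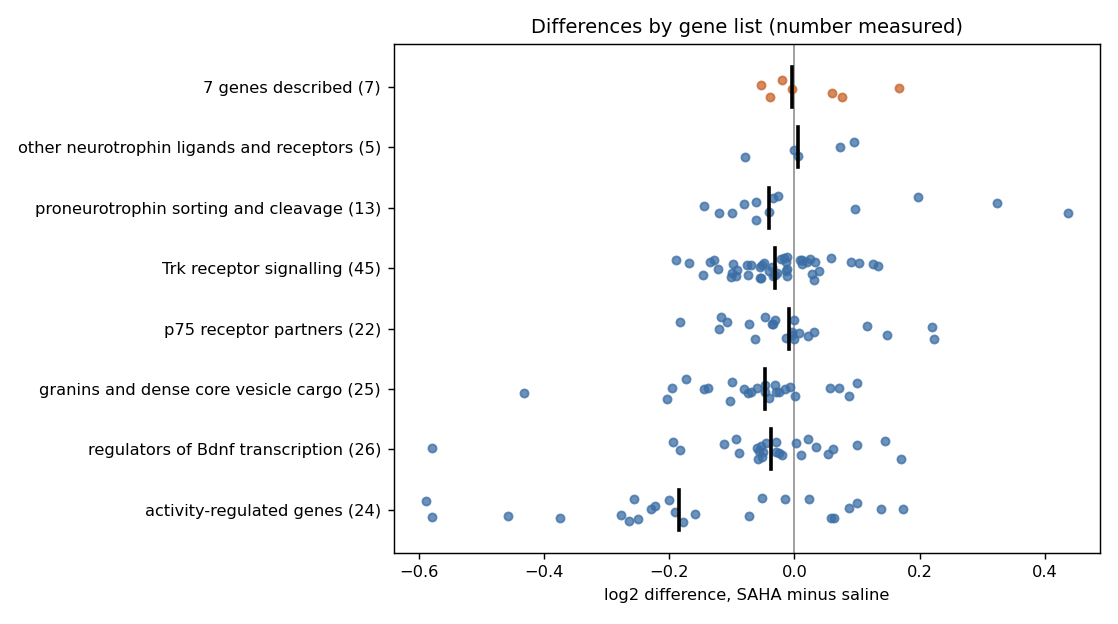
Log2 differences, SAHA minus saline (horizontal axis), of single genes (points) and list medians (vertical bars) for the 7 genes and for 7 lists of the pathway, with the number measured in parentheses. The 7 genes have a median of -0.0036, and the activity-regulated genes, with a median of -0.18, are spread widest.

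Genes whose values followed a member most closely over the 6 arrays are given as a description, out of 9968 genes that reached the median signal. For Vgf they were Lysmd4, Tpm4 and n-R5s136, at Pearson r of 0.992, 0.989 and 0.979, and 76 genes had an r over 0.9. For Ntrk2 they were Zfp146, Ro60 and Ipo11, at 0.991, 0.980 and 0.978, with 84 genes over 0.9. For Bdnf they were Hpgds, Sall1 and Metap2, at 0.970, 0.966 and 0.960, with 22 genes over 0.9. The 6 points of each r share their normalization and come from 2 treatment groups. How many unrelated genes would pass 0.9 over 6 points was not tested, so the counts do not show that genes vary together.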

How the data were processed

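Per the submitters' processing notes, arrays were processed with Affymetrix Expression Console and RMA, with no version named; per the labels' protocols, 200 ng of RNA per sample went through whole-transcript amplification and biotin labelling. The deposited values are log2 signals of 35556 probe sets, from 1.43 to 14.2. The genome build of the probe sets is not given in the sources used here. RMA evens out differences between arrays, yet the gene medians of the SAHA arrays lay above those of the saline arrays. Precision is limited by having 3 arrays a group. Of the probe sets, 21789 pair with 1 gene symbol in the platform annotation, and the brightest by mean stood for each of 19938 genes. Promoter sequences came from RefSeq (GRCm38.p6); entries for Ntf5, Ntrk3, Sort1 and Vgf were not used here.

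The groups were compared in R 4.3.3 with limma 3.58.1 (lmFit, then eBayes), two-sided, without a block, adjusted by Benjamini-Hochberg over all genes, with a threshold of 0.05. The fit was tested on simulated data. Members and lists were chosen with earlier results of these data known. Named are all members, all other measured genes of neurotrophin receptor families and the 3 genes of smallest p of each other pathway list. Also named are Camk2a and Zic1, the brightest markers of their lists, and the 3 genes most correlated with Bdnf, Ntrk2 and Vgf. The brightest genes of the other marker lists are not named. No marker list had a gene called. Same-numbered libraries of the groups deviated with correlations of -0.10, -0.079 and 0.015 and were not treated as pairs.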

Additional observations from a re-analysis of the deposited data

How the results depend on the processing

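Over 17 alternatives, 118 member differences were refitted and 0 passed the adjusted threshold in limma, at a lowest adjusted p of 0.222, for Vgf when dimmer genes were left out; 102 kept their sign. All 17 values of Bdnf and of Vgf stayed positive, and Vgf was at an unadjusted p under 0.05 in 7 of them. Alternatives that changed only the variance, the block, the probe sets or the genes tested returned the reported difference of each member. No sign could turn in those, and they are part of the 102. Over all genes, where the reported fit called 0 and 3472 lay at an unadjusted p under 0.05, limma called 27 when genes under the median signal were left out, 28 when eBayes used an intensity trend, 31 when that trend was robust, and 0 in the other alternatives. None of these called a member. With the replicate number as a block, 0 genes and 0 members were called, at a Vgf difference of 0.17 and an adjusted p of 0.362. Signs turned in 16 fits of 5 genes. After quantile normalization the values were -0.040 for Ntf5, 0.040 for Ntrk2, 0.0070 for Ntrk3 and 0.052 for Sort1, and cyclic loess gave -0.042, 0.038, 0.0049 and 0.053. Leaving out saline replicate 1 and SAHA replicate 3 gave -0.025 for Ntf5, 0.012 for Ntrk2 and 0.010 for Sort1. With 1 library left out, Ngfr ranged from -0.14 to 0.099, Ntrk2 from -0.036 to 0.0013 and Sort1 from -0.018 to 0.014. The cause of these turns was not tested; the filter tests fewer genes by construction. The adjustment over 19938 genes and 3 arrays a group limit what can be called.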
